A study of Rattus norvegicus with 170 samples.

Results

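Top2a, Top2b, Mki67 and 7 condensin genes (Smc2, Smc4, Ncapd2, Ncapg, Ncaph, Ncapd3 and Ncapg2) encode proteins that untangle, coat and compact chromosomes. They were taken by symbol as 10 of the 24113 genes in a table of single cells from rat islets. The islets came from 8-week-old male wild-type Sprague Dawley rats, were picked by hand and were kept in RPMI with 10% serum and 5.5 mM glucose for 48 h. The medium held either 0.1% DMSO, the vehicle, or 3 μM GNF4877, an aminopyrazine inhibitor of the kinases DYRK1A and GSK3B. The islets were dispersed with trypsin, cells were captured on a microfluidic C1 chip, and their cDNA was sequenced as single reads of 50 bases, with the wells of a plate pooled in 1 lane.

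Topoisomerase II cuts a DNA duplex, passes another duplex through the break and reseals it. The alpha isoform, Top2a, is made mainly by dividing cells and separates sister chromosomes, whereas the beta isoform, Top2b, is also present in cells that have left the cell cycle, where it acts at transcribed genes. Ki-67, from Mki67, covers mitotic chromosomes and keeps them apart from each other. Condensin is a ring built on the ATPases Smc2 and Smc4, which in condensin I binds Ncapd2, Ncapg and Ncaph and in condensin II binds Ncapd3, Ncapg2 and Ncaph2. Most adult beta cells are outside the cell cycle.

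The table held 86 DMSO and 84 GNF4877 cells. Ins1-high cells were those with 1000 RPM (reads per 1000000 mapped reads) or more of Ins1, the insulin 1 gene, which gave 78 DMSO and 59 GNF4877 cells. Alpha cells had 1000 RPM or more of the glucagon gene Gcg and less Ins1 than that, which gave 5 and 18 cells. The remaining 3 DMSO and 7 GNF4877 cells met neither rule. The lowest Ins1 value inside the Ins1-high group was 1784 RPM with DMSO and 1248 RPM with GNF4877, and the highest outside it was 495 and 813 RPM. The labels named no animal, culture or second chip, so a treatment counted as 1 sample and values are given without tests. Chip, lane and treatment cannot be told apart.

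The Ins1-high cells carried other beta cell genes. Ins2 was at 10 RPM or more in all of them, the glucose transporter gene Slc2a2 in 87.2% of DMSO and 88.1% of GNF4877 cells, and Pdx1 in 65.4% and 50.8%. Nkx6-1 reached 10 RPM in 42.3% and 16.9%, and Mafa did so in none, with reads in 5 DMSO cells (highest 3.67 RPM) and no GNF4877 cell. Of the other alpha cell genes, Gc was at 10 RPM or more in 5 of 5 DMSO and 16 of 18 GNF4877 alpha cells, and Irx2 in 2 and 5. A second hormone gene (Gcg, Sst or Ppy) at 1000 RPM or more was present in 25 of the DMSO and 4 of the GNF4877 Ins1-high cells. Lists of other cell types also differed between the treatments in Ins1-high cells. The alpha cell list had a mean sum of 44881 RPM with DMSO and 1362 RPM with GNF4877, led by Gcg, with medians of 734 and 482 RPM. The mesenchymal list had mean sums of 285 and 0.59 RPM, with medians of 0.92 and 0 RPM, led by Col1a1 with DMSO and Acta2 with GNF4877. The immune list had mean sums of 11.05 and 65.4 RPM, led by Cd74, which was at 10 RPM or more in 8.97% and 20.3% of cells. The part of the mesenchymal and immune lists in the values of the 10 genes was not tested, and the shares without cells of a second hormone stayed within the intervals of those given here.

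Mapped reads per Ins1-high cell had a lowest value of 241604, a median of 1235723 and a highest value of 2499138 with DMSO, and 324416, 1424573 and 2171567 with GNF4877. In the median cell 93.7% of the mapped reads of DMSO and 93.6% of those of GNF4877 fell on the listed transcripts, but DMSO cells 48, 73 and 80 and GNF4877 cell 2 had between 3.03% and 18.9% there. Without these cells Top2a reached 10 RPM in 1 of 75 DMSO and 12 of 58 GNF4877 Ins1-high cells, and Top2b in 47 and 15. The GNF4877 cells had fewer genes at 10 RPM or more, with a median of 4428 against 5915. Across the 10905 genes that reached 10 RPM in at least 10% of either group, the median change in the share of cells was −10.8 percentage points, and 82.4% of these genes had a lower share with GNF4877. The part of this general shift in each value given here was not tested.

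Top2a was almost absent from the vehicle cells and reached its highest values with the inhibitor. Its lowest, median and highest values were 0, 0 and 310 RPM over the 78 DMSO cells and 0, 1.71 and 2408 RPM over the 59 GNF4877 cells. All reads of the DMSO group came from a single cell, number 46, and the other 77 were listed at 0. Top2a reached 10 RPM in 1 DMSO cell (1.28%, exact 95% interval 0.03% to 6.94%) and in 12 GNF4877 cells (20.3%, 10.98% to 32.83%). These Clopper-Pearson intervals, and the Poisson intervals given for pooled reads, cover counting error only, since the reads carry no molecular identifiers and are not independent molecules. Pooled over cells, Top2a had 3.70 RPM (Poisson interval 3.32 to 4.11) with DMSO and 224 RPM (221 to 227) with GNF4877.

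The GNF4877 values of Top2a fell into a high and a low range with a gap between them. The 12 cells above the minimum lay between 53.4 and 2408 RPM, and 11 of them were at 100 RPM or more. Of the other 47 cells, 36 had a few Top2a reads, with a median of 1.70 RPM and a highest value of 8.83 RPM, against 0 of 77 DMSO cells. The same low values occurred in 12 of the 17 GNF4877 alpha cells under 10 RPM. These cells shared a lane with cells that held over 1000 RPM, and whether the low reads came from the cells' own RNA was not tested.

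Top2b showed the opposite order. Its lowest, median and highest values were 0, 25.99 and 281 RPM with DMSO and 0, 0.66 and 412 RPM with GNF4877, so the ranges overlapped while the medians lay apart. It reached 10 RPM in 47 of 78 DMSO cells (60.3%, 48.5% to 71.2%) and in 15 of 59 GNF4877 cells (25.4%, 14.98% to 38.44%). At 100 RPM or more the counts were 16 and 5. Pooled over cells, Top2b had 58.3 RPM (56.7 to 59.8) with DMSO and 32.4 RPM (31.2 to 33.7) with GNF4877. A share lower by 2-fold or more was found for 25.3% of the 10905 genes, and Top2b was the 1 of the 10 genes with such a value, so a difference of this size was common in the table.

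The isoforms were also counted together in each cell. With DMSO, 47 cells had Top2b alone, 1 had Top2a alone, none had both and 30 had neither. With GNF4877, 11 cells had Top2b alone, 8 had Top2a alone, 4 had both and 36 had neither. Top2b was thus at 10 RPM in 4 of the 12 cells with Top2a (33.3%, 9.92% to 65.1%) and in 11 of the 47 cells without (23.4%, 12.3% to 38.03%), and no direction is read from these counts. Among the cells with Top2a, the median of Top2b was 0.90 RPM, and the highest value of the GNF4877 group, 412 RPM, was in cell 63, which also had 326 RPM of Top2a. The Pearson correlation of log2(RPM + 1) between the isoforms was 0.10 over the 59 cells, which share a chip and a lane.

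**Figure D1:**
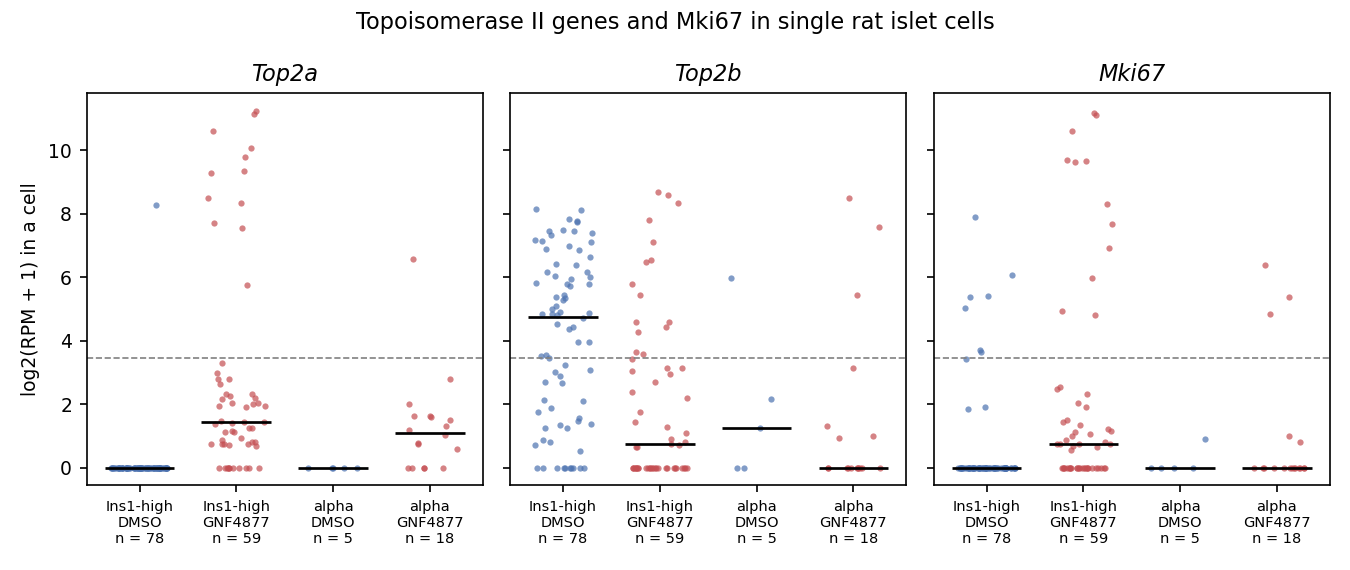
Each point is a cell, with log2(RPM + 1) of Top2a, Top2b or Mki67 on the vertical axis and the 4 groups of cells on the horizontal axis. Black bars are medians and the dashed line is 10 RPM. Top2a lies above the line in 1 DMSO and 12 GNF4877 Ins1-high cells, and Top2b in 47 and 15.

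Mki67 had high values in the inhibitor cells and lower ones in several vehicle cells. Its lowest, median and highest values were 0, 0 and 240 RPM with DMSO and 0, 0.69 and 2303 RPM with GNF4877. It reached 10 RPM in 7 DMSO cells (8.97%, 3.68% to 17.6%) and 12 GNF4877 cells (20.3%, 10.98% to 32.83%). At 100 RPM or more the counts were 1 and 9, a wider gap than at the lower minimum. Of the 7 DMSO cells with Mki67, 1 had Top2a (cell 46), and in the other 6 Mki67 lay between 11.5 and 66.2 RPM with Top2a listed at 0.

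Smc2 and Smc4, the ATPases common to both condensins, were found in many cells of either treatment. Smc2 reached 10 RPM in 32 DMSO cells (41.03%, 30.01% to 52.75%) and 30 GNF4877 cells (50.8%, 37.5% to 64.1%), with medians of 2.84 and 10.7 RPM. For Smc4 the counts were 41 (52.6%, 40.93% to 63.99%) and 27 (45.8%, 32.7% to 59.2%), with medians of 13.4 and 2.12 RPM. The order of the treatments by share depended on the minimum, since at 1 RPM Smc2 was in 55.1% of DMSO and 54.2% of GNF4877 cells, and at 50 RPM Smc4 was in 23.1% and 28.8%. Smc2 was at 100 RPM or more in 5 DMSO and 18 GNF4877 cells, and Smc4 in 5 and 12, and the highest values were 332 and 730 RPM for Smc2 and 186 and 900 RPM for Smc4. Both were at 10 RPM or more in the same cell in 20 DMSO and 20 GNF4877 cells.

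The condensin I subunits were each found in a minority of cells. Ncapd2, a HEAT-repeat subunit, reached 10 RPM in 12 DMSO cells (15.4%) and 11 GNF4877 cells (18.6%), with highest values of 157 and 590 RPM. Ncapg, the other HEAT-repeat subunit, did so in 6 (7.69%) and 10 (16.9%) cells, with highest values of 73.4 and 354 RPM. Ncaph, the kleisin that closes the ring, was at 10 RPM in 2 DMSO cells (2.56%, 0.31% to 8.96%) and 10 GNF4877 cells (16.9%, 8.44% to 28.97%). Ncaph was at 100 RPM or more in 0 and 7 cells. The only transcript of Ncaph in the table was a predicted non-coding model, so its values rest on that sequence.

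The condensin II subunits differed from each other. Ncapd3 was at 10 RPM or more in 17 DMSO cells (21.8%) and 15 GNF4877 cells (25.4%), with highest values of 163 and 485 RPM. Ncapg2 was found in 3 DMSO cells (3.85%, 0.80% to 10.8%) and 10 GNF4877 cells (16.9%, 8.44% to 28.97%). A single GNF4877 cell, number 95, held 51.3% of the summed Ncapg2 values of its group, and DMSO cell 46 held 79.8% in the other. Ncaph2, the kleisin of condensin II, which was not among the 10 genes, was at 10 RPM in 27 DMSO cells (34.6%) and 17 GNF4877 cells (28.8%).

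**Figure D2:**
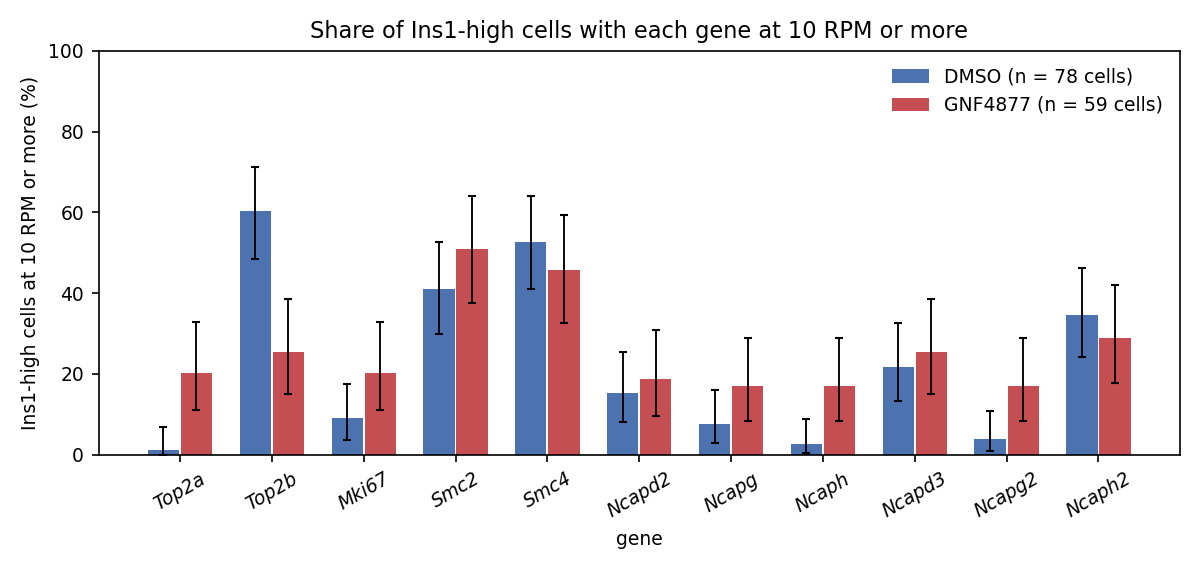
Bars give the percentage of Ins1-high cells with each gene at 10 RPM or more, for 78 DMSO and 59 GNF4877 cells, and error bars are exact 95% intervals of the counts. Top2a is at 1.28% and 20.3%, Top2b at 60.3% and 25.4%, and Smc2 and Smc4 lie between 41.03% and 52.6% in both treatments.

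By mean RPM, 9 of the 10 genes were 2-fold or more higher with GNF4877, against 8.00% of the 17855 genes with a read, and 0 were 2-fold or more lower, against 14.5%. Among the 13973 genes with a mean of 1 RPM or more in either group, which all 10 genes had, 10.2% were higher and 18.5% lower. The log2 ratio of the means, with 1 RPM added to each, was 5.20 for Top2a, 4.53 for Mki67, 4.16 for Ncaph, 2.88 for Ncapg2 and 2.52 for Ncapg. It was 1.99 for Smc2, 1.72 for Smc4, 1.42 for Ncapd2 and 1.14 for Ncapd3, and −0.72 for Top2b. The median over the 10 genes was 2.25, beside −0.08 over all genes. By the share of cells at 10 RPM, 5 of the 10 genes were 2-fold or more higher (Top2a, Mki67, Ncapg, Ncaph and Ncapg2), beside 3.07% of the 10905 genes. All 5 were under 10% with DMSO. They met the minimum of 10% of cells behind the 3.07% only with GNF4877, the group where they were high, so nothing is read from this count.

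These means rest on a few cells. When the mean of log2(RPM + 1) was compared instead, which gives less weight to the highest cells, 3 of the 10 genes (Top2a, Mki67 and Ncaph) were higher by 1 or more, against 1.35% of the 17855 genes, and Smc4 differed by 0.04. By this measure 1 of the 10, Top2b, was lower by 1 or more, at −2.03, against 18.5% of genes. Without cell 95 the ratio of Ncapd2 was 0.84 and that of Ncapg2 was 1.92, without cell 68 that of Ncapd3 was 0.75, and without cell 63 that of Top2b was −1.03. Among DMSO cells, leaving out cell 46 gave 5.37 for Mki67 and 4.12 for Ncapg2, and leaving out cell 4 gave 4.88 for Ncaph. Without cell 46 the DMSO group had no Top2a read.

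Shares were also taken at an equal number of listed reads. Every cell was thinned to 100000 reads on listed transcripts, where 1 read is 10 per 1000000 listed rather than mapped reads, and 2 DMSO cells and 1 GNF4877 cell with fewer listed reads were left out. Top2a then had a read in 1 of 76 DMSO cells (1.32%) and 19 of 58 GNF4877 cells (32.8%), and Top2b in 57 (75%) and 19 (32.8%). Of the 19 GNF4877 cells with Top2a, 12 had 10 RPM or more before thinning and 7 had the low values described above. The median number of genes with a read was still 6621 with DMSO and 4918.5 with GNF4877, so the general difference in genes per cell remained at this depth. Mki67 had a read in 6 (7.89%) and 14 (24.1%), Smc2 in 35 and 28, and Smc4 in 45 and 30.

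Several of the genes were found in the same inhibitor cells. Of the 12 GNF4877 cells with Top2a, 8 also had Mki67 at 10 RPM or more, and 4 of the 47 other cells did. Smc4 was present in 10 of the 12 and 17 of the 47, Smc2 in 9 and 21, and Ncapd2 in 6 and 5. Ncapg and Ncapg2 were each present in 6 of the 12 and 4 of the 47, Ncaph in 5 and 5, and Ncapd3 in 5 and 10. A cell with Top2a had a median of 4.5 of the 7 condensin genes at 10 RPM or more, from 0 to 7, and a cell without had a median of 1, from 0 to 5. Median mapped reads were 1596717 in the 12 cells and 1405482 in the 47, and median genes at 10 RPM or more were 4934 and 4306.

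Counted over the 9 genes other than Top2b, 11 GNF4877 cells had 5 or more of them at 10 RPM, against 1 DMSO cell, and 14 GNF4877 and 17 DMSO cells had none. GNF4877 cell 16 had all 9, with 2408 RPM of Top2a, 2207 of Mki67, 736 of Smc4 and 501 of Smc2. Cells 95 and 96 had 8 of the 9, and cells 36 and 40 had 7. DMSO cell 46 also had all 9, with 310 RPM of Top2a, 240 of Mki67, 332 of Smc2 and 169 of Smc4, while its Top2b was 1.76 RPM. It was also the single DMSO Ins1-high cell with a read of Ccnb1, which encodes the mitotic cyclin B1, at 49.4 RPM.

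The genes did not always occur together. Cells 22, 25, 31 and 78 had Top2a between 53.4 and 658 RPM with Mki67 under 10 RPM, and in cells 22 and 78 none of the condensin genes reached 10 RPM. Cells 11, 13, 39 and 87 had the reverse, with Mki67 between 27.1 and 318 RPM and Top2a under 10 RPM. Cell 11 stood out by its condensin, with 730 RPM of Smc2, 320 of Smc4 and 1019 of Ncaph2 but no Top2a read. Cells 19 and 26 had 5 condensin genes each with less than 10 RPM of both Top2a and Mki67. Cells 11, 78, 25 and 31 had 2702, 2405, 3854 and 3769 genes at 10 RPM or more, below the group median of 4428. The other cells named here were above that median. The part of missed transcripts in these patterns was not tested.

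**Figure D3:**
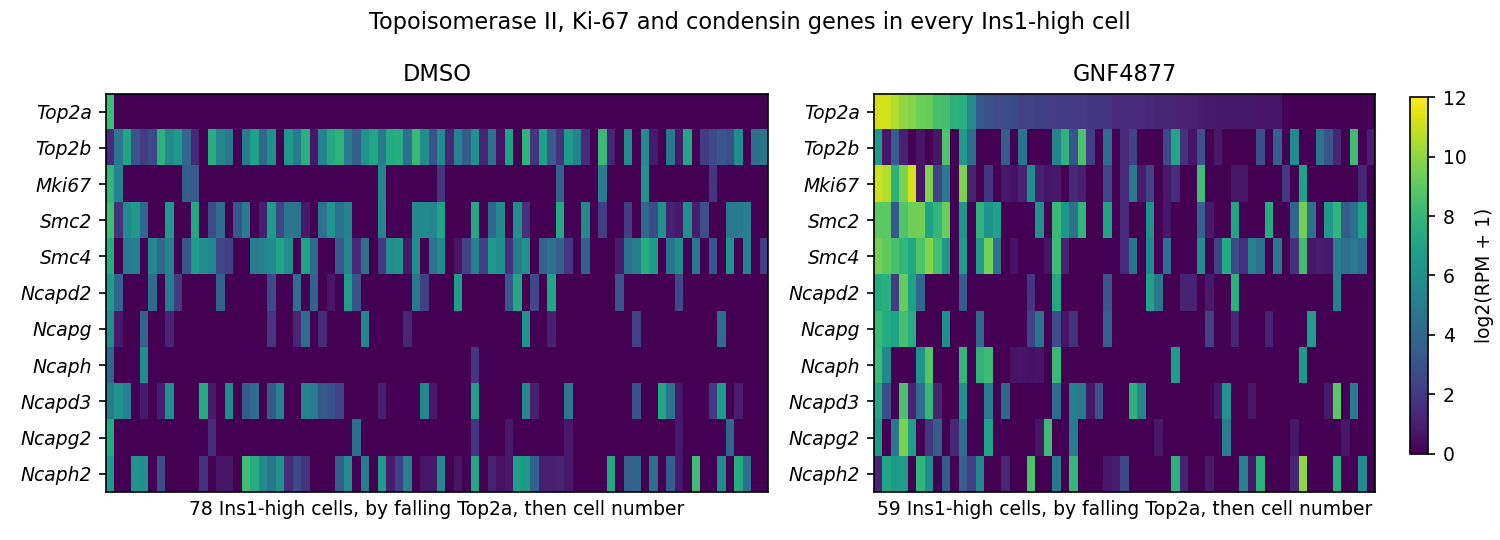
Each column is an Ins1-high cell (78 DMSO cells on the left, 59 GNF4877 cells on the right), in order of falling Top2a and, where Top2a is equal, of cell number. Colour is log2(RPM + 1) of the gene in each row. The 12 cells at the left of the GNF4877 panel have 10 RPM or more of Top2a, and they hold 7 of the 9 values of 100 RPM or more of Mki67, 8 of 12 of Smc4, 8 of 18 of Smc2 and 1 of 5 of Top2b.

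The 12 cells with Top2a had the beta cell list at a median sum of 55394 RPM, against 29482 RPM in the 47 others, with Mafa at 0 in both. Ins1 led the list, with means of 44587.9 and 25043.5 RPM. All these cells were chosen by their Ins1, so no cell identity is read from the sums. In the 12, Irx1 and Irx2 of the alpha cell list were at 0. The median sum of the list was 760 RPM in the 12 cells and 443 RPM in the 47, its most abundant gene in the 12 was Gcg, and the highest Gcg value, 37011 RPM, was in cell 31. The mesenchymal list had a highest sum of 2.43 RPM, led by Acta2 with Col3a1 at 0, and the endothelial list had 4 of 5 genes at 0 and a highest sum of 54.4 RPM of Pecam1. The duct list had a median sum of 98.3 RPM in the 12 cells and 173 RPM in the 47, led by Krt7, and Sox9 was at 0 in the 12. The immune list was led by Cd74, with a mean of 89.8 RPM in the 12 and 50.3 RPM in the 47 and highest sums of 615 and 981 RPM, and Lyz2 and Aif1 were at 0 in both. The part of these lists in the result was not tested.

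In alpha cells, Top2a reached 10 RPM in 1 of 18 GNF4877 alpha cells (5.56%, 0.14% to 27.3%) and in 0 of 5 DMSO alpha cells, a number that allows a share of up to 52.2%. That cell, number 20, had 357885 RPM of Gcg and 32.8 of Ins1, with 93.7 RPM of Top2a, 83.6 of Mki67, 121 of Ncapd2, 105 of Ncapd3, 82.8 of Smc4 and 78.9 of Smc2. It had 7 of the 9 genes at 10 RPM or more, and none of the other 17 had 5 or more. Mki67 was at 10 RPM or more in 3 of 18 cells, of which cells 9 and 42 had under 10 RPM of Top2a.

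Top2b was found in 3 of 18 GNF4877 alpha cells (16.7%, 3.58% to 41.4%), none of them with Mki67, and in 1 of 5 DMSO alpha cells (20%, 0.51% to 71.6%). Smc2 reached 10 RPM in 7 of 18 and 1 of 5, and Smc4 in 4 of 18 and 0 of 5. Ncapd2 was at 10 RPM in 1 of 18 and 2 of 5, with a highest DMSO value of 116 RPM, Ncapg and Ncapd3 each in 1 of 18 and 1 of 5, and Ncapg2 in 1 of 18 and 0 of 5. The highest Smc2 value, 486 RPM, was in cell 84, which had no read of the other 9 genes. Ncaph was under 10 RPM in all alpha cells of both treatments. With 5 DMSO cells the intervals are wide, and no direction is read from these counts.

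Other gene groups of chromosome structure gave a measure of how far the pattern reached. Of 6 other topoisomerases and repair enzymes of their DNA adducts, 1 was 2-fold or more higher by mean RPM (Tdp1, 1.02) and 1 was lower (Top3b, −1.03), beside 8.00% and 14.5% of all genes, with a median log2 ratio of 0.14. The share of cells at 10 RPM was lower with GNF4877 for all 6, Tdp1 included (16.7% and 11.9%). Top1, which cuts a single strand, was at 10 RPM in 69.2% of DMSO and 67.8% of GNF4877 cells. Of 15 genes of cohesin, the ring that holds sister chromatids together, and its regulators, 4 were higher and 0 lower by mean RPM, with a median of 0.42. The 4 (Cdca5, Sgol2, Espl1 and Pttg1) encode regulators, and no subunit of the ring was among them. The share at 10 RPM was higher with GNF4877 for 5 of the 15 and lower for 10. Of the 13 that reached 10 RPM in at least 10% of either group, 1 was 2-fold lower by share, beside 25.3% of the 10905 genes. Another 3 were 2-fold higher, beside 3.07%, but met that minimum only with GNF4877, so nothing is read from their number. Of the genes with the highest means, Mau2, a loader subunit, had −0.22, the core ATPases Smc3 and Smc1a had 0.58 and 0.42, and Nipbl, the other loader subunit, had −0.56. Of 6 genes of the SMC5-SMC6 complex, 0 were higher and 1 lower by mean RPM, Smc5 with −1.13, and the median was 0.20. The share at 10 RPM was lower with GNF4877 for all 6, with 0 past 2-fold.

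Partners of mitotic chromosome packaging were higher by mean RPM in 8 of 14 and lower in 0, with a median of 1.88. Of all genes, 8.00% were 2-fold higher and 14.5% lower by mean RPM, and by share 3.07% and 25.3% of the 10905 genes. The share at 10 RPM was higher with GNF4877 for 10 of the 14 and lower for 4. Of the 11 that reached 10 RPM in at least 10% of either group, 7 were 2-fold higher by share. All of these but Kif22 met that minimum only with GNF4877, so nothing is read from their number. The 4 with the highest mean RPM were the phosphatase subunit gene Ppp1cc (−0.31), the scaffold gene Akap8 (0.03), the mitotic kinase gene Cdk1 (3.72) and the chromokinesin gene Kif22 (3.78). Of 18 other mitotic genes, 17 were higher and 0 lower by mean RPM, with a median of 4.40. The share at 10 RPM was higher with GNF4877 for 17 and lower for 1. All 15 that reached 10 RPM in at least 10% of either group were 2-fold higher by share. They met this minimum only with GNF4877, the group where they were high, so nothing is read from that count. The 4 with the highest mean RPM were Prc1 (4.53), Pbk (5.15), Ccnb1 (5.66) and Hmmr (4.70), and the gene that was not 2-fold higher was Foxm1 (0.84), a transcription factor of mitotic genes. Of 21 DNA replication genes, 17 were higher and 0 lower by mean RPM, with a median of 1.5. The share at 10 RPM was higher with GNF4877 for 16 and lower for 5. Of the 18 that reached 10 RPM in at least 10% of either group, 5 were 2-fold higher by share (Mcm3, Mcm5, Rrm2, Tk1 and Cdc45). All of these but Tk1 met that minimum only with GNF4877, so nothing is read from their number. Pcna was at 10 RPM in 84.6% of DMSO and 84.7% of GNF4877 cells, and Rrm1 in 48.7% and 38.98%. Those with the highest mean RPM were Pcna (1.11), Gins2 (−0.44), Rrm1 (1.64) and Mcm4 (1.17).

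Across the 59 GNF4877 Ins1-high cells, the genes most like Top2a among 9333 by Pearson correlation of log2(RPM + 1) were Cenpt (0.89), Ccnb1 (0.87), Ect2 (0.86), Pbk (0.85) and Bub1 (0.85). Those most like Mki67 were Ube2c (0.84), LOC100911204 (0.76), Ube2t (0.76), RGD1561367 (0.75) and Ckap2 (0.74). For Top2b the values were lower, led by Prlr (0.53), LOC682404 (0.51), Polr2j (0.51), Gnai2 (0.50) and Mcm10 (0.50). Between Top2a and Mki67 the correlation was 0.71, between Smc2 and Smc4 0.60, and Top2b had 0.15 or less with each of the other 9 genes. These values describe cells of 1 treatment, chip and lane, in which Top2a and Mki67 each had 12 cells at 10 RPM or more.

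The promoters of Top2a, Mki67, Smc4 and Ncapg are shown with that of Top2b, from RefSeq sequences of the rat build GRCr8, in which all 10 genes were found. The letters CCAAT, the sequence bound by NF-Y, and TTTGAA, a form of the cell cycle genes homology region, were searched on both strands, together with TTTAAA and the E2F-like GGCGCG, in windows of 250 bases before and 50 after each gene's start. CCAAT was present in 7 of the 10 windows and in 37.5% of 33469 promoters, and TTTGAA in 6 of 10 and 18.3%. GGCGCG was in 4 of 10 and 17.6%, and TTTAAA in 2 of 10 and 13.6%. Top2b had CCAAT at 2 places and no TTTGAA, Ncaph had neither CCAAT nor TTTGAA, and Ncapd3 and Ncapg2 had none of the motifs. The printed promoters other than that of Top2b each held both CCAAT and TTTGAA. Ncapg2, at 10 RPM in 6 of the 12 cells with Top2a as was Ncapg, is not printed. The printed promoters therefore do not stand for all genes found with Top2a. The 150 bases before the start are printed on the gene's strand, 5′ to 3′, with matches on either strand in capitals, and in Mki67 a TTTGAA and a reversed CCAAT share a base. A match is a description of letters, and binding was not measured.
Top2a (chr10:84473094-84473243, minus strand): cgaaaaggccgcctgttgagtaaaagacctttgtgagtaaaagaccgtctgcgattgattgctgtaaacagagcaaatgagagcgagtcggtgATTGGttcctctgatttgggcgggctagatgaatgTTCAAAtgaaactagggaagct
Mki67 (chr1:199952594-199952743, minus strand): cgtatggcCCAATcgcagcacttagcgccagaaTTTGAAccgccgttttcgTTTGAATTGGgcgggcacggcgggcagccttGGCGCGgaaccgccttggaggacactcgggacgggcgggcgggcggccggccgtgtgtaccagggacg
Smc4 (chr2:155550112-155550261, plus strand): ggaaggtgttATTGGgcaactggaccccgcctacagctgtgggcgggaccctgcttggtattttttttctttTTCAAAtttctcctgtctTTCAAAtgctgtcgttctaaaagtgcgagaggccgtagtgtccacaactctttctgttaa
Ncapg (chr14:69645446-69645595, minus strand): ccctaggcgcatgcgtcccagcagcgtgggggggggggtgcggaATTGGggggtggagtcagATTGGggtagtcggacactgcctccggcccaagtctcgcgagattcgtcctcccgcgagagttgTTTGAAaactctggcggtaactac
Top2b (chr15:11542465-11542614, minus strand): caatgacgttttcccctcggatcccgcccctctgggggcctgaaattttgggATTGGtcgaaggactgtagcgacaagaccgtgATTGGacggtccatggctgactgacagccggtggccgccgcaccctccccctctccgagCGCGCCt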

How the data were processed

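The authors deposited 1 table of RPM, reads per 1000000 mapped reads, for 27586 rat RefSeq transcripts in 170 cells, made with CASAVA 1.8.2, BWA 0.5.9 and SAMtools 0.1.19 per the submitters' processing notes. The study's methods name the mouse transcriptome as the target of alignment, whereas the rows carry rat accessions, and which was used could not be settled. Values at the deposited floor of 0.01 RPM (69.7% of all values) were set to 0, and transcripts of a symbol were summed. The step between low values in a cell gave the RPM of 1 read, from which mapped reads and read counts were obtained, and 100% of values up to 20 reads were whole within 0.1 read. Shares have exact Clopper-Pearson intervals and pooled reads exact Poisson intervals. Ratios are log2 of mean RPM plus 1, and 2-fold was the call. No doublet caller was run. The functions were tested on simulated data. Named genes were the 10 genes, Ncaph2, up to 4 genes of highest mean RPM per list, the 5 genes of highest correlation, and genes a count needed. The members and lists were chosen with earlier results of these data known. The motifs, the 100 RPM minimum and single cells were chosen after their values were seen. Python 3.11.15, pandas 2.3.3 and scipy 1.17.1 were used. Some marker genes are not reported here.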

Additional observations from a re-analysis of the deposited data

Results flagged for a closer look

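Top2a and Mki67 were also found in GNF4877 cells that met neither hormone rule, while the 3 DMSO cells of this kind had no Top2a or Mki67 read. Among the 7 GNF4877 cells, number 49 had 1704 RPM of Top2a and 608 RPM of Mki67 with 35288 RPM of Sst, the somatostatin gene. Cell 15 had 1584 RPM of Top2a and 596 RPM of Mki67, and all 9 genes other than Top2b at 10 RPM or more. Cell 73 had 40.4 RPM of Mki67 with 70421 RPM of Ppy and no Top2a read. Top2b was under 10 RPM in all 7 GNF4877 cells of this kind, with a highest value of 0.63 RPM. Lists of cell types outside the hormone cells were also present. The mesenchymal list had a mean sum of 2804 RPM over the 7 GNF4877 cells and 3005 RPM over the 3 DMSO cells, with medians of 0 and 5.99 RPM. The acinar list had mean sums of 836 and 19352 RPM, with medians of 0. The part of these lists in the cells with Top2a was not tested. DMSO cell 91 and GNF4877 cells 5 and 57, of this kind, had few of their mapped reads on listed transcripts, 3.86% in cell 91 and between 2.65% and 13.1% in the other two. These cells were outside the comparison of Ins1-high and alpha cells, and with 3 DMSO cells no difference between treatments can be drawn.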

How the results depend on the processing

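No paired analysis was possible because numbers in the labels only name cells of 1 sample per treatment. The shares of the 10 genes in Ins1-high cells stayed within their main intervals with Ins1 minimums of 100 or 10000 RPM, without cells of a second hormone, with RPM over listed reads, with the highest transcript of a symbol and, a setting chosen after seeing the data, without the cells of few listed reads, and no log2 ratio changed sign where it was 2-fold or more. The minimum moved the shares. With any read, Top2a was in 81.4% of GNF4877 cells, Mki67 in 57.6% and Top2b in 55.9%, and Top2b was in 87.2% of DMSO cells. At 1 RPM the values were 64.4%, 42.4%, 45.8% and 82.1%. At 50 RPM, Top2b was in 35.9% of DMSO and 13.6% of GNF4877 cells, and Mki67 in 2.56% of DMSO cells. At 100 RPM, a minimum chosen after seeing the data, the values were 20.5%, 8.47% and 1.28%. At 100000 listed reads Top2b had a read in 75% of DMSO cells.

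With a pseudocount of 10 RPM the log2 ratios of Top2a and Mki67 were 3.78 and 3.40. When log2(RPM + 1) was averaged over cells and subtracted, they were 2.74 and 1.60, that of Top2b was −2.03, and 3 of the 10 genes were 2-fold or more higher. Leaving out each cell in turn gave 4.86 to 7.51 for Top2a and 4.14 to 5.37 for Mki67, with the upper values without DMSO cell 46. That omission as a setting of its own was chosen after seeing the data, and the 7.51 depends on the 1 RPM added, since no Top2a read was left. Over the 10 genes and all other settings, 106 log2 ratios moved by less than 1.5-fold and 24 by more, and 175 shares stayed within the main interval and 45 did not. The cause of these moves beyond the settings themselves was not tested. In the shallowest Ins1-high cell, with 241604 mapped reads, 10 RPM is between 2 and 3 reads. The alpha cell shares were limited by the 5 DMSO cells.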
